A study of Homo sapiens with 8 samples.

Results

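The experiment compared 2 arrays of 231BrM cells grown with doxycycline against 2 arrays of 231BrM cells grown without it, which are 4 of the 8 arrays of the study. The members were taken by their labels alone. 231BrM is a brain-metastatic derivative of the human breast cancer line MDA-MB-231, which is of basal, mesenchymal character. Per the study's design text, all 4 cultures carried a short hairpin against MET under doxycycline control, so the control cells held the same construct in its uninduced state. The labels give the treatment as 100 ng of doxycycline, with no volume, for 48 h. Every treated culture held the hairpin, and the drug's own effect cannot be told apart from the hairpin's in any value below. Whether the cells came from 1 clone or a pool is not given in the sources used here. A further 4 arrays, labelled SKBrM3, had the same layout (2 with and 2 without doxycycline) and served to estimate the spread and as a second line. Nothing in the labels states that replicate arrays are separate cultures, and the p-values then describe only array-to-array spread, part of which may be technical.

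MET encodes the receptor tyrosine kinase for hepatocyte growth factor. When active, it recruits adaptors such as GAB1 and GRB2 and signals through the ERK, PI3K and STAT3 pathways to growth, motility and survival. In metastatic breast cancer cells the receptor is also linked to the output of inflammatory cytokines and chemokines, many of which are transcribed under NF-kB and AP-1 control. A short hairpin is processed into a small RNA that guides cleavage of its target transcript, so the level of MET itself is the check of induction.

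Levels are given as the deposited RMA values, which are log2 signal per probe set, so a difference of 1 is 2-fold. One probe set stands for each gene, and levels of different genes are not comparable. Of the 20 markers listed for the parental line 17 passed the filter on low values: VIM, for one, lay between 12.77 and 12.91, CD44 between 11.56 and 11.61 and AXL between 11.43 and 11.64. TWIST1, also on that list, lay under the filter level of 4.41 on all 4 arrays. So did 4 of 22 luminal and ERBB2 markers (CDH1, ERBB3, CLDN3 and TFAP2B), while the other 18 passed, among them the keratins KRT8 and KRT18. Of 17 fibroblast, endothelial, leukocyte and astrocyte markers on the array 9 passed, and the leukocyte gene PTPRC, for one, did not. ERBB2 lay between 6.76 and 6.89 here, and its mean was 6.71 in the control arrays labelled SKBrM3, a line known for amplified ERBB2, so that label is kept as a label only.

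The first doxycycline array stood apart from the other 7, and both doxycycline arrays are therefore given separately for every called gene. Where a gene that was not called has a single log2 value, it is the mean of both arrays against the control mean. Its actin control probe sets differed between their 3' and 5' ends by 1.24 log2 units, against 0.47 on the second doxycycline array and 0.59 and 0.55 on the controls. For GAPDH the corresponding differences were 0.33 on that array and 0.02, 0.08 and 0.04 on the others. The 18S ribosomal RNA control probe set at the 5' end read 5.24 there, against 12.08 on the second doxycycline array and 10.76 and 11.99 on the controls. The SD over genes of the difference between replicates was 0.255 in this group, 0.124 in the 231BrM controls and 0.138 and 0.132 in the arrays labelled SKBrM3. The part of these RNA quality readings in the results was not tested, and each doxycycline array is set against the same 2 controls.

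**Figure D1:**
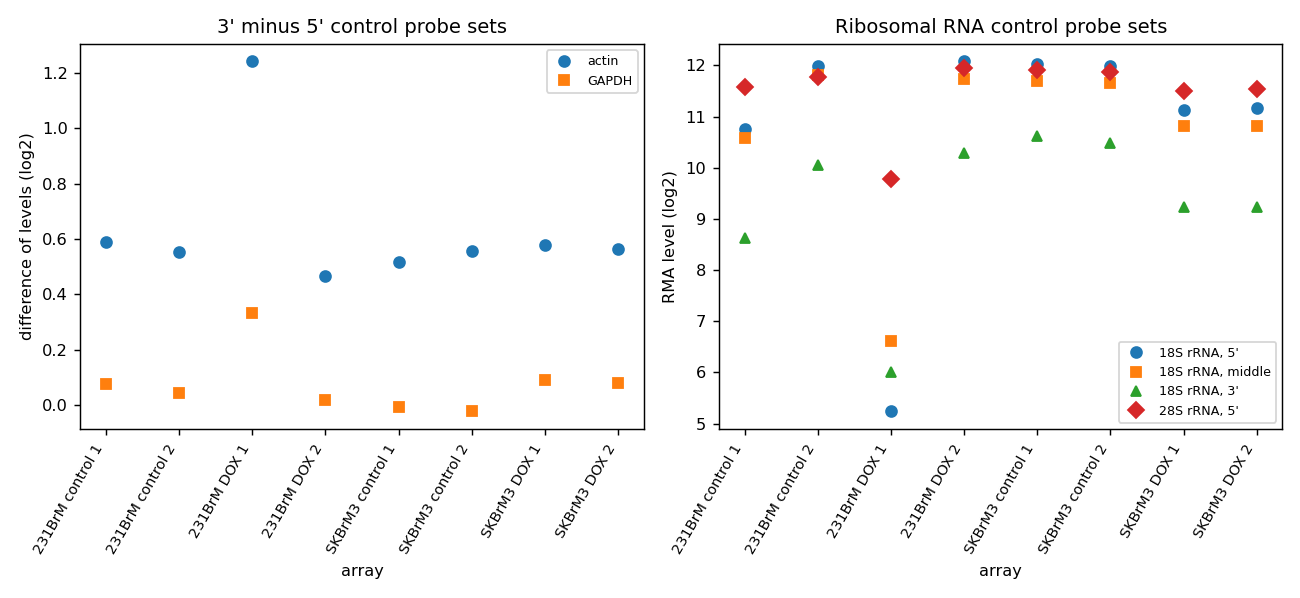
Left, 3' minus 5' difference of the actin and GAPDH control probe sets (log2) on each of the 8 arrays. Right, RMA levels (log2) of ribosomal RNA control probe sets. The first 231BrM doxycycline array (231BrM DOX 1) has the highest 3' excess, 1.24 for actin and 0.33 for GAPDH, and the lowest level of the 18S and 28S probe sets drawn.

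With doxycycline, 21 of 13002 genes tested fell (0.162%) and 0 rose at a limma adjusted p under 0.05. The largest fall was that of MET itself. The others ran from -0.59 for ZC3HAV1L to -1.53 for SLITRK5 on the log2 scale and included 3 neutrophil-attracting chemokines, IL1B, the EGF receptor ligand TGFA and the mTORC1 inhibitor DDIT4. All 21 had both doxycycline arrays below both controls, which selection by a small p for the same contrast favours, so it is no further support. Of all genes tested, 12.1% had this arrangement and 25.8% lay above both controls. At an unadjusted p under 0.05, 486 genes (3.74%) were lower and 800 (6.15%) higher. The median over all genes was 0.05, with 0.10 on the first doxycycline array and -0.001 on the second.

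**Figure D2:**
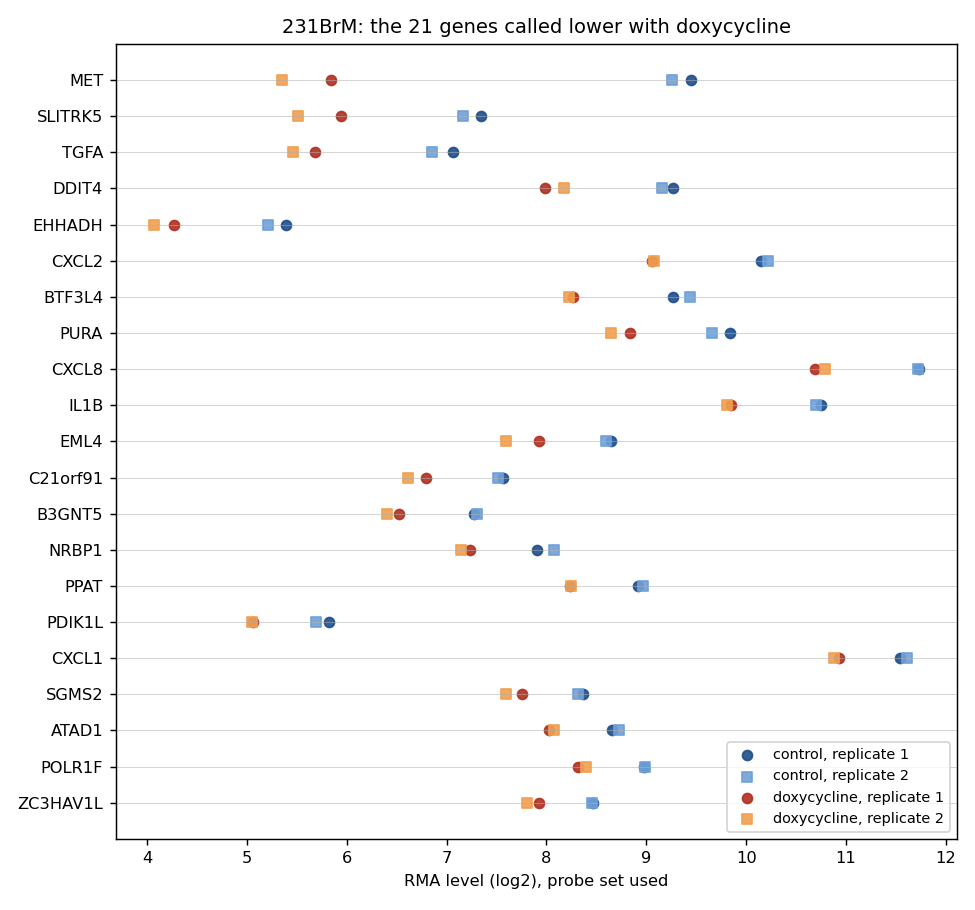
RMA level (log2) of the 21 genes called lower with doxycycline in 231BrM, on each of the 4 arrays, ordered by the size of the fall. Circles are replicate 1 and squares replicate 2, with control arrays in blue and doxycycline arrays in red and orange. Every doxycycline point lies left of both control points of the same gene.

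The number called depended on the arrays in the fit. Without the first doxycycline array, 78 genes (0.6%) were called lower and 2 (0.0154%) higher, all 21 among the former. Without the second, 482 were called lower and 1168 higher. Without control replicate 1 or 2 the counts were 3 and 4, without either control array labelled SKBrM3 13, and without either doxycycline array labelled SKBrM3 11. A fit that leaves 1 array in a group assumes that it varies like the other groups. The 4 231BrM arrays alone called 1 gene, MET. Array weights called 11 genes, all lower. Arrays centred on their median called 43, all lower. An intensity trend with a robust prior called 44 lower and 1 higher.

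MET read 9.45 and 9.26 on the control arrays and 5.85 and 5.35 on the doxycycline arrays. Both doxycycline values lay far below both controls, and in this probe set the first array kept slightly more signal than the second. The log2 change was -3.76 (SE 0.148, 95% interval -4.09 to -3.42, limma adjusted p = 2.83e-05), which is 13.5-fold, and each array alone gave -3.51 and -4.01 against the control mean. Of the 6 MET probe sets 4 passed the filter on low values, and their log2 changes were -3.76, -2.75, -2.38 and -1.08. The third of these read 3.63 and 3.74 with doxycycline, under the filter level, so its value is limited by low signal. On the first and second doxycycline array the last 3 gave -2.80 and -2.71, -2.43 and -2.32, and -1.14 and -1.02, so in these the first array was slightly the lower. All 4 were called when each probe set was tested alone.

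MET was the only one of 23 tested genes of its receptor axis that was called. The others include the RON receptor MST1R (5.05 and 4.97 on the controls, 5.04 and 4.96 with doxycycline), the adaptors GAB1 (log2 change 0.01) and GRB2 (-0.11 and -0.21 on the first and second doxycycline array), and the protease inhibitors SPINT1 (0.17) and SPINT2 (0.14), which restrain activation of the ligand. HGF, the ligand, lay at 4.19 and 4.21 on the controls and 4.53 and 4.20 with doxycycline and was not tested. PLCG1, a phospholipase recruited by the receptor, read 7.02 and 6.93 on the controls and 6.25 and 6.53 with doxycycline. Both doxycycline values lay below both controls, but the log2 change of -0.59 missed the threshold (limma adjusted p = 0.118), and its second probe set gave -0.15. PIK3R1, the regulatory subunit of PI3K, had -0.24 and -0.27 on these arrays. STAT3 had -0.47 on the first doxycycline array and 0.11 on the second.

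The chemokines that attract neutrophils through CXCR1 and CXCR2 lie side by side on chromosome 4, and 3 of the 5 genes of this list that were tested fell. Their promoters are shown because they moved together and hold the same letters. The sequences are RefSeq promoters of GRCh38.p14, from 250 bases before to 50 after the start of the gene, written along the gene's strand. Capitals mark matches to the NF-kB letters GGNNTTTCC, searched on both strands.

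CXCL8: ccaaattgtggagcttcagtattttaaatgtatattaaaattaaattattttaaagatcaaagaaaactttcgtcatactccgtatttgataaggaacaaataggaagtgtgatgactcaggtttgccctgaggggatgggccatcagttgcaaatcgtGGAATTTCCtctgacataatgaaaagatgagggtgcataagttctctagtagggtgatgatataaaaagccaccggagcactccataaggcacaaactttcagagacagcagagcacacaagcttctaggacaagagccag

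CXCL2: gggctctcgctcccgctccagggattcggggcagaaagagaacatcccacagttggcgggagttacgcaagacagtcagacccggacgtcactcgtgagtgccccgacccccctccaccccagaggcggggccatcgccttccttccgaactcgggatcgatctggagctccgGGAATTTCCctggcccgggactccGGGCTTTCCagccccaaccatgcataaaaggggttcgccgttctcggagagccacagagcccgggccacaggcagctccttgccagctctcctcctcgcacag

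CXCL1: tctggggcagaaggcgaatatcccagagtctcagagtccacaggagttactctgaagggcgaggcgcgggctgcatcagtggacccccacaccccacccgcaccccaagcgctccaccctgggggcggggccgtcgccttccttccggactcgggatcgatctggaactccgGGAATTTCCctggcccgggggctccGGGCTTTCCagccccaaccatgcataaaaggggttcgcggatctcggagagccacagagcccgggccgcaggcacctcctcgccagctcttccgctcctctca

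These windows are chr4:73740319-73740618 on the + strand for CXCL8, chr4:74099146-74099445 on the - strand for CXCL2 and chr4:73869143-73869442 on the + strand for CXCL1. The first match begins at -91 in CXCL8, -77 in CXCL2 and -78 in CXCL1, counted from the start, and CXCL2 and CXCL1 each hold 2 matches with the same letters, GGAATTTCC and GGGCTTTCC. CXCL3, a close relative, holds the same 2. Of all 35116 RefSeq promoters 6.26% held a match, and 9.02% of the 10583 tested genes with one. Of the 21 called genes 19 had a promoter there, and 4 of them held a match, the fourth being POLR1F. The AP-1 letters TGANTCA were found in 7.71% of all promoters and in 2 called genes, CXCL8 and SGMS2. A match describes the letters and is no evidence of binding.

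CXCL8, which encodes interleukin-8, read 11.73 and 11.72 on the controls and 10.69 and 10.79 with doxycycline. CXCL2 read 10.15 and 10.22 on the controls and 9.06 and 9.07 with doxycycline. CXCL1 read 11.54 and 11.61 on the controls and 10.93 and 10.88 with doxycycline. In all 3 genes the arrays of each group were nearly equal and the groups were well apart, also on the first doxycycline array. The log2 changes were -0.98 (SE 0.081, limma adjusted p = 0.00327) for CXCL8, -1.12 (SE 0.080, limma adjusted p = 0.00207) for CXCL2 and -0.67 (SE 0.085, limma adjusted p = 0.0248) for CXCL1. The other probe sets above the filter, 2 for CXCL8 and 1 each for CXCL2 and CXCL1, ran from -1.08 to -0.92. CXCL3 read 7.75 and 7.78 on the controls and 7.04 and 6.40 with doxycycline. Both its doxycycline values lay below the controls but 0.64 apart, and its log2 change of -1.04 did not pass (limma adjusted p = 0.117). It was called without the first doxycycline array, at -1.36. The receptor CXCR1 had 0.06, and CXCL5, CXCL6, PPBP and CXCR2 lay under the filter level. The median over the 5 tested was -0.98, against 0.05 over all genes.

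The interleukin-1 cytokines were split. IL1B, which encodes interleukin-1 beta, read 10.75 and 10.70 on the controls and 9.85 and 9.81 with doxycycline. The replicates were nearly equal in each group, and the gene fell by 0.90 on the log2 scale (SE 0.108, limma adjusted p = 0.0216). IL1A, which encodes interleukin-1 alpha, read 8.37 and 8.47 on the controls and 7.75 and 7.19 with doxycycline. Its log2 change of -0.95 missed the threshold (limma adjusted p = 0.111), with the doxycycline arrays 0.56 apart. The receptor genes IL1R1 (0.00) and IL1RAP (0.06) and the antagonist IL1RN (0.12) were near the median of all genes. IL18, a related cytokine, had 0.31 and 0.30 on the first and second doxycycline array (limma adjusted p = 0.4). Of the 9 family members tested 1 was called, and the median was 0.06.

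No member of the IL6 family and colony-stimulating factors was called. At an unadjusted p under 0.05, 5 of the 11 tested were lower and none higher, against 3.74% and 6.15% of all genes, and the median was -0.20 (-0.15 and -0.24 on the first and second doxycycline array). IL11, which signals through the same receptor chain as IL6, read 8.43 and 8.41 on the controls and 7.82 and 7.89 with doxycycline. Its arrays agreed within each group, and its log2 change was -0.56 (limma adjusted p = 0.0901). IL6 itself had -0.28, the shared receptor chain IL6ST -0.20, LIFR -0.34 and CSF3, which encodes the granulocyte growth factor, -0.24. Among the 7 other chemokines tested none was called. CCL2, a monocyte attractant, read 7.47 and 7.52 on the controls and 7.51 and 6.80 with doxycycline, so only the second array was low. CCL20 had -0.40 and CCL5 0.07.

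A list of NF-kB target genes was kept apart from the cytokines and chemokines, so that CXCL1, CXCL2, CXCL8 and IL1B are not in it. Of its 18 genes tested none was called. Both doxycycline arrays lay below both controls in 11, against 12.1% of all genes, and 8 were lower with an unadjusted p under 0.05, against 3.74%, with none higher. Their median was -0.21, with -0.16 on the first array and -0.22 on the second. ICAM1, an adhesion molecule for leukocytes, read 7.03 and 6.71 on the controls and 6.16 and 5.91 with doxycycline. Its groups did not overlap, and its log2 change was -0.84 (limma adjusted p = 0.0787). PTGS2, the inducible cyclooxygenase, read 6.20 and 5.76 on the controls and 5.50 and 5.12 with doxycycline (log2 change -0.67). On the first and second doxycycline array TNIP1 had -0.59 and -0.50, TRAF1 -0.54 and -0.34, and the apoptosis inhibitor BCL2A1 -0.19 and -0.49. None of the 14 NF-kB subunits and inhibitors was called, 2 were lower with an unadjusted p under 0.05, and 4 had both arrays below both controls, with a median of -0.08. Those 2 were not subunits: NFKBIA read 9.72 and 9.93 on the controls and 9.07 and 9.47 with doxycycline (-0.55), and NFKBIZ had -0.30 and -0.53 on the first and second array. Among the subunits, RELA had -0.14, NFKB1 -0.07 and REL -0.02.

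TGFA, a ligand of the EGF receptor, read 7.06 and 6.86 on the controls and 5.68 and 5.46 with doxycycline. Both doxycycline arrays lay over 2-fold below the control mean, and the log2 change was -1.39 (SE 0.109, limma adjusted p = 0.00311), or 2.62-fold lower. HBEGF, a second ligand, read 9.77 and 9.75 on the controls and 9.31 and 9.20 with doxycycline. Its groups were apart by more than the spread within each, but the log2 change of -0.51 did not pass (limma adjusted p = 0.0791). EREG (0.10) and NRG1 (-0.03) lay near the median of all genes, and ERRFI1, an inhibitor of the receptor, had -0.33. EGFR itself cannot be read from the mean of the group. It read 9.62 and 9.70 on the controls and 8.04 and 9.99 with doxycycline. In this probe set the first doxycycline array was thus far below both controls and the second above both. Of 6 EGFR probe sets above the filter 4 were over 2-fold lower on the first array than on the second. The others gave -0.03 on both arrays, and 0.11 and -0.09 on the first and second. Of the 8 genes of this list that were tested, 1 was called.

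The lists of ERK output genes and of AP-1 factors held no call. The 21 ERK output genes had a median of -0.03, and 4 were lower with an unadjusted p under 0.05, against 3.74% of all genes, none higher. ETV1, a transcription factor induced by ERK, read 8.49 and 8.23 on the controls and 7.92 and 7.57 with doxycycline. The groups did not overlap, and its log2 change was -0.62 (limma adjusted p = 0.179). The phosphatases DUSP6 (-0.04) and DUSP5 (-0.01), the feedback inhibitor SPRY4 (-0.03), EGR1 (0.03) and MYC (-0.01) lay near the median. Among the 11 AP-1 factors, JUNB read 6.88 and 6.82 on the controls and 6.43 and 6.41 with doxycycline (log2 change -0.43, limma adjusted p = 0.169). JUN had -0.35 and FOSL1 0.09. JUND had -0.96 on the first doxycycline array and -0.26 on the second.

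DDIT4, a stress-induced inhibitor of mTORC1 that is also known as REDD1, read 9.27 and 9.15 on the controls and 7.98 and 8.17 with doxycycline. Both arrays lay over 2-fold below the control mean, and the gene fell by 1.14 on the log2 scale (SE 0.140, limma adjusted p = 0.0242). It was the only one of 23 genes of mTORC1 and growth control that was called: SESN2 had 0.08, TSC1 -0.03, RHEB 0.02 and TXNIP -0.28. Of 21 genes of the ATF4 response, which induces DDIT4 under stress, none was called. ATF4 itself had 0.09, DDIT3 0.11, ASNS 0.01 and TRIB3 -0.01.

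Hypoxia and glycolysis genes, DDIT4 not among them, held 0 calls in 28 tested. With an unadjusted p under 0.05, 8 were lower and none higher, against 3.74% and 6.15% of all genes. Both doxycycline arrays lay below both controls in 16 and above them in none, against 12.1% and 25.8%. Their median was -0.15, with -0.11 and -0.13 on the first and second array. NDRG1, a gene induced by low oxygen, read 9.88 and 9.12 on the controls and 8.58 and 8.27 with doxycycline. Its controls lay well apart, and its log2 change of -1.08 did not pass (limma adjusted p = 0.28). All 6 of its probe sets were lower, from -1.08 to -1.88. PFKFB4, a regulator of glycolysis, read 6.75 and 6.28 on the controls and 5.94 and 5.93 with doxycycline (-0.58), while its other 2 probe sets above the filter gave -0.04 and 0.05. On the first and second doxycycline array VEGFA had -0.20 and -0.49, PDK1 -0.20 and -0.65, KDM3A -0.30 and -0.32, and P4HA1 -0.30 and -0.35. Glycolytic enzymes with high signal lay nearer to 0, with -0.01 for GAPDH, -0.05 for LDHA, -0.06 for ENO1 and -0.15 for PGK1.

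Several called genes encode enzymes. PPAT, the first committed enzyme of purine synthesis, read 8.92 and 8.97 on the controls and 8.23 and 8.25 with doxycycline. Its log2 change was -0.71 (SE 0.074, limma adjusted p = 0.00979), and its second probe set gave -0.65. Both groups were tight and did not overlap. SGMS2, the sphingomyelin synthase of the plasma membrane, read 8.36 and 8.32 on the controls and 7.75 and 7.60 with doxycycline (-0.66, limma adjusted p = 0.0248). Its second probe set above the filter gave -0.33. B3GNT5, which starts the lacto series of glycosphingolipids, read 7.28 and 7.30 on the controls and 6.52 and 6.40 with doxycycline (-0.83, limma adjusted p = 0.0202). A second B3GNT5 probe set, with signal near the filter level, gave -0.09.

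EHHADH, which oxidises fatty acids in peroxisomes, read 5.39 and 5.21 on the controls and 4.27 and 4.07 with doxycycline. The doxycycline values lay under the filter level of 4.41, so the log2 change of -1.13 (SE 0.098, limma adjusted p = 0.00331) is limited by low signal. Its other 2 probe sets, both too dim to pass, had -0.38 and -0.30. No other gene of fatty acid metabolism was called in 26 tested, and the peroxisomal ACAA1 (0.10) and HSD17B4 (0.03) lay near the median. PPARG, a regulator of fat storage, read 6.56 on both controls and 7.20 and 6.80 with doxycycline (0.44, limma adjusted p = 0.331). Of 20 cholesterol synthesis genes none was called and 4 were lower at an unadjusted p under 0.05, against 3.74% of all genes, among them DHCR7 with -0.36, INSIG1 with -0.38 and CYP51A1 with -0.29.

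SLITRK5, a neuronal transmembrane protein, read 7.34 and 7.17 on the controls and 5.94 and 5.51 with doxycycline. It was the second largest fall, -1.53 (SE 0.136, limma adjusted p = 0.00375), and no other gene was called among 22 semaphorins, plexins and neuronal adhesion genes tested. BTF3L4, a relative of the transcription factor BTF3, read 9.26 and 9.44 on the controls and 8.27 and 8.23 with doxycycline. All 3 of its probe sets gave falls of similar size, from -1.01 to -1.17 on the log2 scale. PURA, a protein that binds purine-rich nucleic acid, read 9.84 and 9.65 on the controls and 8.84 and 8.64 with doxycycline, and its 3 probe sets gave -1.01, -1.37 and -0.86.

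The remaining called genes have no common theme among the lists used here. NRBP1, a pseudokinase, read 7.91 and 8.08 on the controls and 7.24 and 7.15 with doxycycline, and its 4 probe sets ran from -0.80 to -1.11. POLR1F, a subunit of RNA polymerase I, read 8.98 and 8.99 on the controls and 8.32 and 8.40 with doxycycline, and its 3 probe sets ran from -0.63 to -0.80. ATAD1, an ATPase that clears misplaced proteins from the outer mitochondrial membrane, read 8.65 and 8.72 on the controls and 8.02 and 8.08 with doxycycline, with 4 probe sets from -0.39 to -0.64. In these 3 genes every probe set above the filter pointed the same way. EML4, which binds microtubules, read 8.65 and 8.60 on the controls and 7.93 and 7.59 with doxycycline (-0.86), but its other 3 probe sets gave -0.11, -0.02 and -0.18. C21orf91 read 7.56 and 7.51 on the controls and 6.79 and 6.61 with doxycycline (-0.84), and its second probe set gave -0.27. PDIK1L, a predicted kinase, read 5.82 and 5.69 on the controls and 5.06 and 5.05 with doxycycline (-0.70). ZC3HAV1L read 8.47 and 8.45 on the controls and 7.93 and 7.81 with doxycycline (-0.59). In these 3 genes, too, the groups did not overlap. Over all 21 genes, 14 had another probe set above the filter, 26 in all. In 23 of these both doxycycline arrays lay below both controls, against 12.1% of all genes tested, and the share over all probe sets was not counted. The 3 exceptions were probe sets of B3GNT5 and EML4. These probe sets read genes already chosen as low on the same 4 arrays, so the count is no independent support. With each of 28860 probe sets tested alone, 19 were called, all lower, in 13 genes, and 12 of these genes were among the 21. The other was CCNY, a cyclin.

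No gene rose at the threshold, although 3361 genes had both doxycycline arrays above both controls. MMP3, a matrix metalloproteinase also called stromelysin, read 5.55 and 5.82 on the controls and 6.87 and 6.32 with doxycycline. The groups did not overlap, and its log2 change of 0.91 was the largest upward among the genes with that arrangement (limma adjusted p = 0.169). TNFRSF11B, the decoy receptor osteoprotegerin, read 6.87 and 6.98 on the controls and 7.41 and 7.46 with doxycycline (0.51, limma adjusted p = 0.0977). FCGR2A, an immunoglobulin receptor, read 6.01 and 5.91 on the controls and 6.50 and 6.55 with doxycycline (0.57, limma adjusted p = 0.102). In these last genes the doxycycline arrays nearly agreed. In others the first array carried most of the difference: CCND2 had 0.99 on the first and 0.45 on the second, GBP3 had 0.85 and 0.36, and ST6GALNAC5, a sialyltransferase linked to passage into the brain, had 0.74 and 0.42. HAS2, a hyaluronan synthase, had 0.39 and 0.48, and RECK, an inhibitor of metalloproteinases, 0.37 and 0.38. These hold for the probe sets used: the others above the filter had log2 changes of 0.42 and 0.05 for HAS2 and -0.17 and 0.02 for RECK. Other metalloproteinase genes differed from MMP3: MMP1 had -0.07, MMP13 0.09 and MMP9 -0.53 (limma adjusted p = 0.114).

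Genes of cell division did not fall with MET. Of 30 mitosis genes, 14 had both doxycycline arrays above both controls and 0 below, against 25.8% and 12.1% of all genes. No mitosis gene was called. With an unadjusted p under 0.05, 6 were higher, and the list's median was 0.08 (0.12 on the first array and 0.11 on the second). CCNB2 read 9.23 and 9.29 on the controls and 9.50 and 9.45 with doxycycline, and BUB1 had 0.20, AURKA 0.19 and TPX2 0.19. PRC1, which bundles the central spindle, had 0.19 in the probe set used and -0.18 over the mean of its probe sets, of which 2 were low on the first doxycycline array. DNA replication genes had a median of 0.01 over 33 tested, with 1 lower at an unadjusted p under 0.05, RRM2 with -0.18. MKI67 had 0.01 and PCNA -0.08. Among cyclins and their inhibitors, CCND1 read 10.83 and 10.80 on the controls and 10.18 and 10.71 with doxycycline in the probe set used. There both arrays were below the controls, the first by far more. Its other probe sets gave -1.96 and 0.18, -1.63 and 0.06, and -1.49 and 0.28 on the first and second doxycycline array. CDKN1A had -0.23.

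Several lists differed between the doxycycline arrays more than between the groups. Interferon-stimulated genes had a median of 0.22 on the first doxycycline array and -0.03 on the second, over 24 tested. MHC class I genes and PD-L1 had 0.19 and 0.01 over 18, mitochondrial ribosome and translation genes 0.18 and 0.01 over 40, and nuclear oxidative phosphorylation genes 0.13 and -0.02 over 36. The medians over all genes were 0.10 and -0.001 on these arrays. None of these 4 lists held a called gene. Mitochondrial translation was listed because doxycycline inhibits it in other settings, and TUFM had 0.11 and MRPL12 -0.01. Cytosolic ribosomal proteins and the proteasome held no gene with an unadjusted p under 0.05 in either direction, over 33 and 28 tested, with medians of 0.03 for both.

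**Figure D3:**
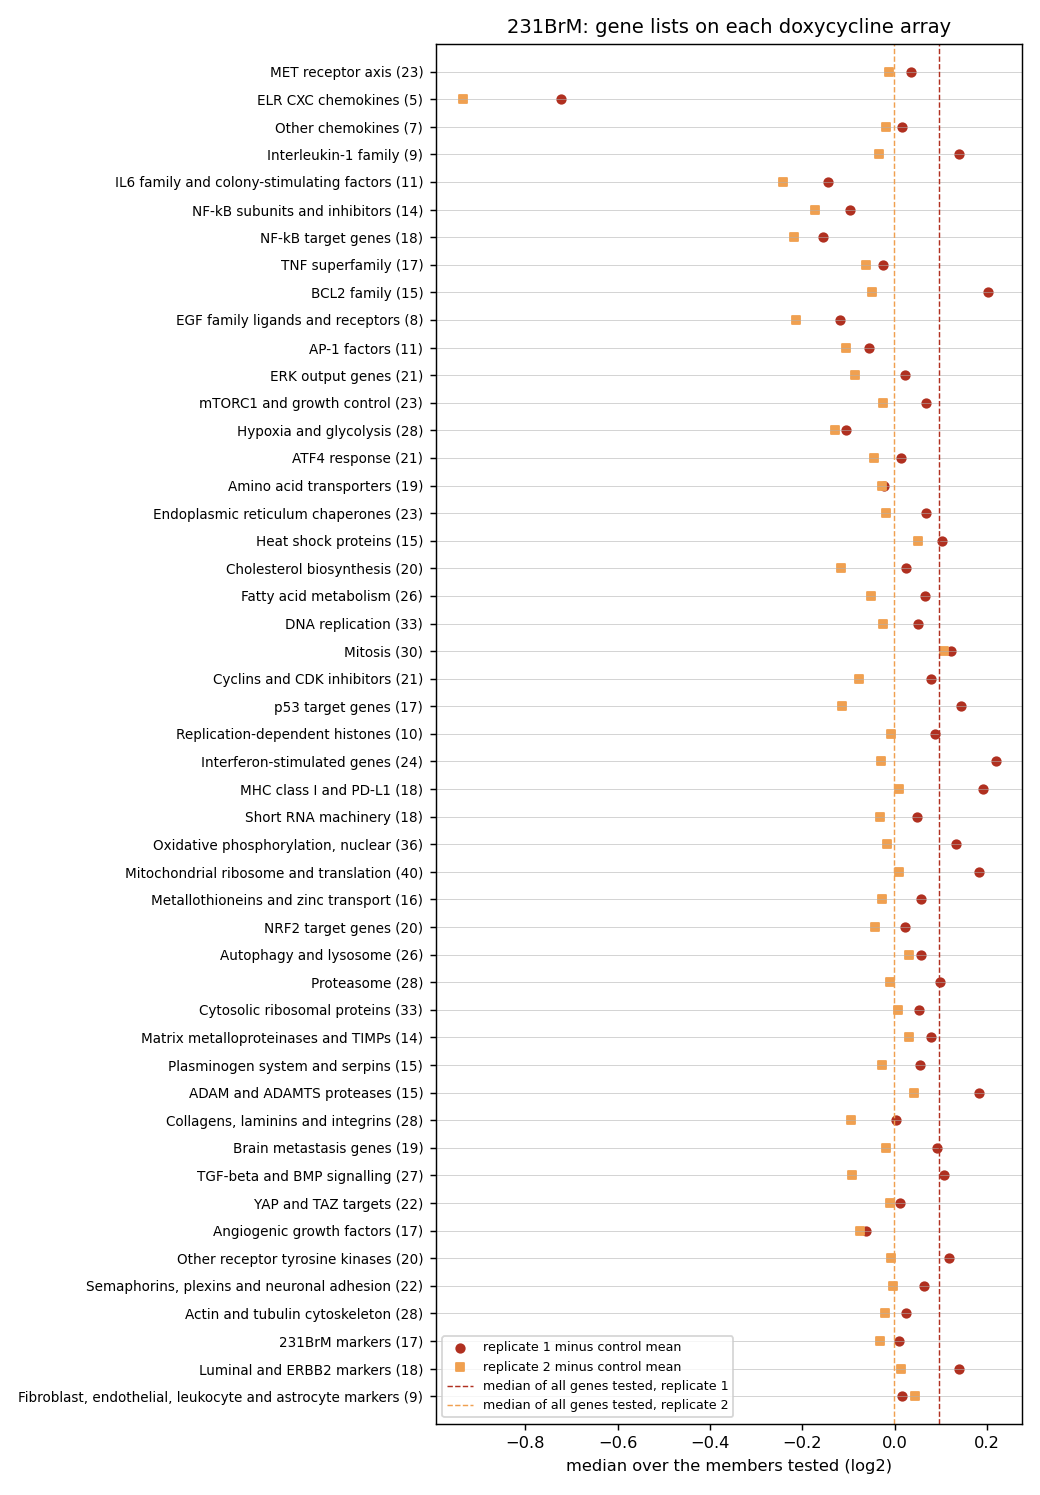
Median difference from the control mean (log2) over the tested members of each of 49 gene lists, for the first (red circles) and second (orange squares) doxycycline array of 231BrM. Dashed lines are the medians over all 13002 genes, 0.10 and -0.001, and numbers in brackets count the members tested. The ELR CXC chemokines stand far to the left on both arrays, and interferon and MHC class I genes lie to the right on the first array only.

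Seen array by array, 65 genes (0.5%) lay over 2-fold below the control mean on the first doxycycline array and 13 (0.1%) on the second. On both arrays 7 genes (0.0538%) did so: MET, SLITRK5, TGFA, DDIT4, EHHADH, CXCL2 and BTF3L4. The 6 further genes of the second array were CXCL3, NDRG1, IL1A, PURA, RRM2B and EML4. In the upward direction MMP3 alone (0.00769%) passed 2-fold on the first array and no gene on the second. Among the 21 called genes the first array was the lower of both in 6.

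A separate set of 66 genes (0.508%) read over 2-fold lower on the first doxycycline array than on the second, against 2 (0.0154%) that read higher and 1 in the 231BrM controls. On the first array all 66 lay below both controls. On the second 40 lay above both controls, 19 between them and 7 below both, and the medians of the set were -1.16 and 0.13 against the control mean. The set was chosen by the distance between the doxycycline arrays, which itself favours such positions. None of the 66 was called. NOG, an inhibitor of BMP signalling, read 9.93 and 9.80 on the controls and 7.01 and 9.66 with doxycycline. HNRNPL, a splicing factor, read 8.35 and 8.28 on the controls and 6.23 and 8.24 with doxycycline. ANKRD1, a YAP target, read 8.63 and 8.83 on the controls and 6.47 and 8.71 with doxycycline. In each the second doxycycline array stayed near the control mean while the first lost most of the signal. CALR, a chaperone of the endoplasmic reticulum, MALAT1, a nuclear long noncoding RNA, and HSPA1B, a heat shock protein, showed the same arrangement, with -2.19, -1.86 and -1.77 on the first array and 0.29, 0.16 and -0.11 on the second.

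**Figure D4:**
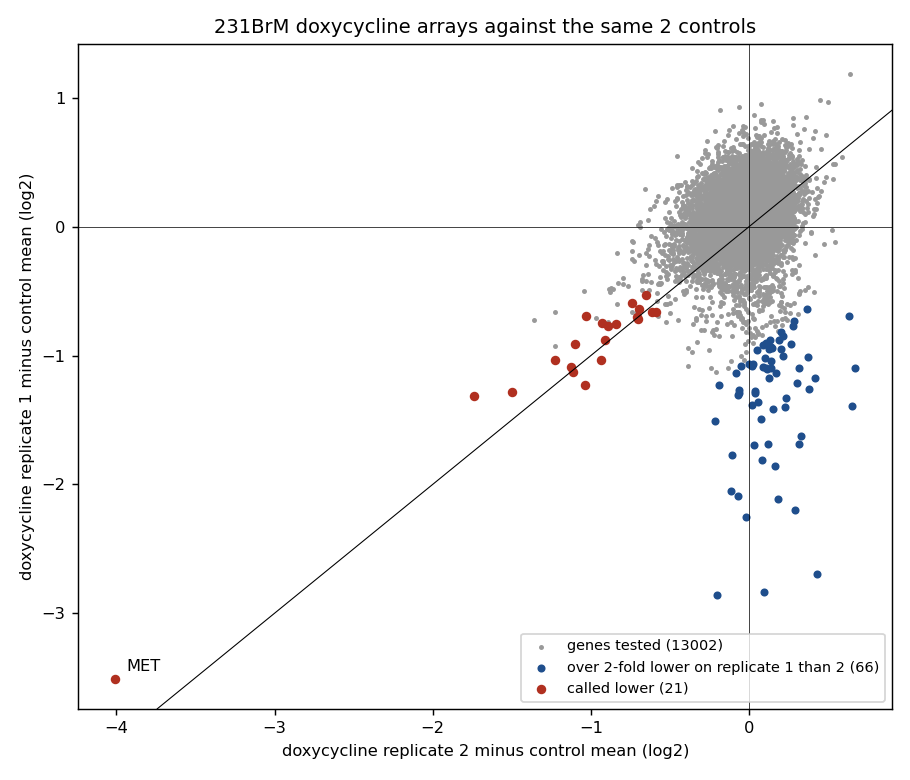
Difference from the mean of the same 2 controls (log2) on the second (x axis) and first (y axis) doxycycline array, for 13002 genes. The 21 called genes (red) lie near the diagonal line of equal values, with MET at the far lower left, and the 66 genes over 2-fold lower on the first array than on the second (blue) lie below 0 on the y axis and mostly near 0 on the x axis.

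This loss was often seen in some probe sets of a gene and not in others. EGFR had 6 probe sets above the filter, whose difference between the doxycycline arrays ran from -2.37 to 0.20, and 4 of them were over 2-fold lower on the first. HNRNPL had 2, both over 2-fold lower, and CCND1 had 4, of which 3 were. Over the 7467 genes with at least 2 probe sets above the filter, the probe sets of 1 gene disagreed by over 1 log2 unit in the replicate difference in 822 (11%) of the doxycycline pair and 20 (0.268%) of the control pair. Counted by probe set, 778 of 28860 (2.7%) were over 2-fold lower on the first doxycycline array and 9 higher, while 7 were lower in the control pair. KRT8, a keratin, read 9.45 and 9.57 on the controls and 8.43 and 9.53 with doxycycline, whereas its partner KRT18 read 11.25 and 11.20 on the controls and 11.39 and 11.40 with doxycycline.

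Left to the second doxycycline array alone, the fit added 59 genes to the 21, 57 of them lower. In 49 of the genes added as lower the first array also lay below both controls. Both arrays were set against the same 2 controls, which favours this, so it is no further support. The share over all genes was not counted for the first array alone. Of the genes added as lower, 28 were called lower in the arrays labelled SKBrM3 too, against 2.28% of all genes. Besides CXCL3, IL1A, ICAM1, HBEGF, ETV1 and BCL2A1 the genes added as lower included RRM2B, a ribonucleotide reductase subunit induced by p53. RRM2B read 7.97 and 7.89 on the controls and 7.43 and 6.89 with doxycycline, but its other probe sets above the filter had log2 changes of -0.20 and -0.05. THBS2, a matrix glycoprotein, read 7.89 and 7.69 on the controls and 7.28 and 6.91 with doxycycline. In the probe set used for each of these genes all doxycycline values lay below the controls, the second array further. The 2 genes called higher there were KAZALD1, with 0.37 and 0.53 on the first and second array, and BLID, with -0.69 and 0.63, so its arrays point opposite ways.

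Most of the falls were shared with the arrays labelled SKBrM3, which have their own controls and enter the same estimate of the spread. Of the 21 genes, 20 (95.2%) were also called lower there, where 296 of 13002 (2.28%) were called lower in all and 150 (1.15%) higher, so these 20 make up 6.76% of that list. The fall was larger in the SKBrM3 arrays in 18 genes and larger in 231BrM in 3: EHHADH, SLITRK5 and MET. EHHADH lay under the filter level on all 4 SKBrM3 arrays (3.80 on average in the controls and 3.70 with doxycycline), so a fall could not be measured there. MET fell by 3.76 and 3.50, and the difference of -0.26 (95% interval -0.74 to 0.21) did not pass (limma adjusted p = 0.673). TGFA had -1.39 and -1.42, but its mean with doxycycline in the SKBrM3 arrays lay under the filter level, so its size there is limited by low signal. DDIT4 had -1.14 in both.

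**Figure D5:**
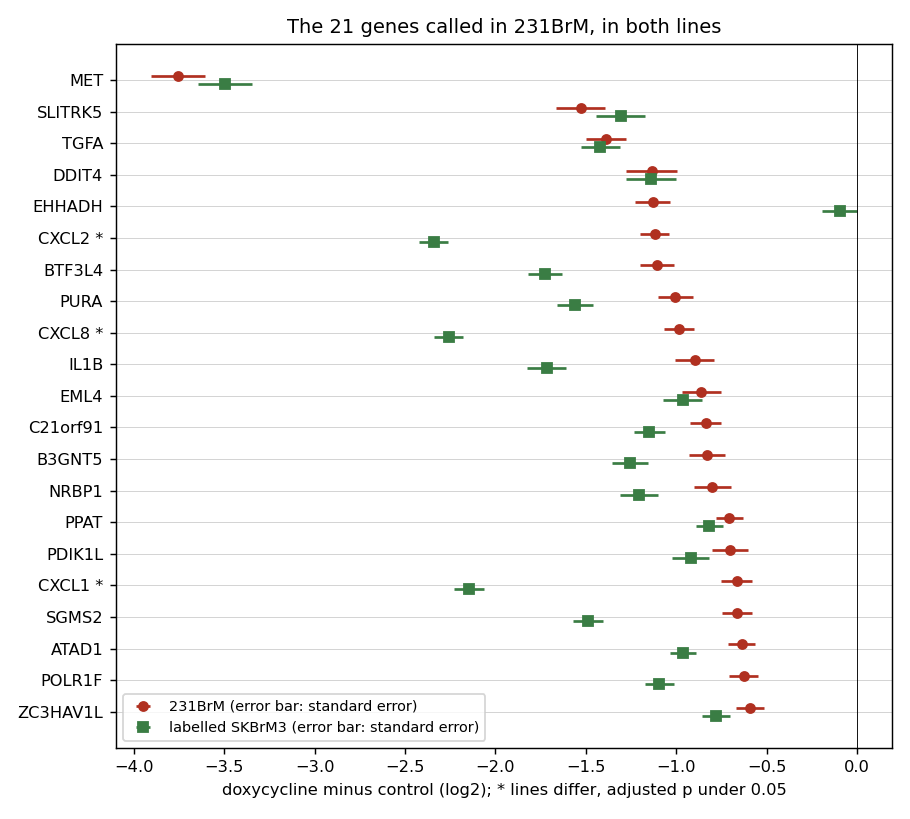
Doxycycline minus control (log2, point with standard error bar) for the 21 genes called in 231BrM, in 231BrM (red circles) and in the arrays labelled SKBrM3 (green squares). Stars mark CXCL2, CXCL8 and CXCL1, whose effects differed between the lines at an adjusted p under 0.05, and EHHADH, near 0 in the arrays labelled SKBrM3, is under the filter level there.

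The difference between the lines was tested for every gene, and 3 (0.0231%) passed with the 231BrM value above that of the SKBrM3 arrays and 0 the other way. At an unadjusted p under 0.05, 892 genes (6.86%) were above and 560 (4.31%) below. The 3 were the chemokines. CXCL1 had -0.67 in 231BrM and -2.15 in the SKBrM3 arrays, a difference of 1.48 (SE 0.119). CXCL8 had -0.98 and -2.26, a difference of 1.27 (SE 0.114), and CXCL2 had -1.12 and -2.34, a difference of 1.22 (SE 0.113), each with a limma adjusted p of 0.0114. Their fall on the log2 scale was thus smaller in 231BrM, where their control levels were higher. The control means in 231BrM and in the SKBrM3 arrays were 11.57 and 10.13 for CXCL1, 11.73 and 11.42 for CXCL8, and 10.18 and 9.30 for CXCL2. The part of the starting level in the difference was not tested. None of the 3 differences was called without either 231BrM control array, without either control array labelled SKBrM3 or without the first doxycycline array of that line, and 1 was without the second. All 3 were called without the first 231BrM doxycycline array, where 2 other genes passed below, and 278 above and 195 below passed without the second. The difference for EHHADH is not read, given its low signal in the SKBrM3 arrays. IL1A (-0.95 and -0.08) and FCGR2A (0.57 and -0.56) did not pass, with limma adjusted p-values of 0.28 and 0.072. IL1A lay about the filter level of 4.41 in the SKBrM3 arrays (4.44 on average in the controls and 4.36 with doxycycline). A fall of IL1A could therefore hardly be measured there.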

How the data were processed

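RNA was measured on 8 single-colour Affymetrix arrays, 2 per group. The deposited values are log2 levels per probe set, made by the authors with RMA, per the submitters' processing notes. For the software version, chip definition and build the sources used here name nothing. RMA includes quantile normalization, which gives all arrays nearly the same distribution (medians 4.92 to 4.97) and hides any shift of RNA content. Scanner intensities were not used here.

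Of 49386 probe sets, 93 are controls, 45253 match 1 gene, 1327 match more and 2713 match none. Symbols of 45172 were updated by gene ID through RefSeq (GRCh38.p14), and 81 were kept. Each of 18239 genes was read from its brightest probe set by the 8-array mean. Genes had to exceed 4.41, the 40th percentile of all values, on 2 or more arrays: 13002 did and 5237 did not. Limma 3.58.1 (lmFit and eBayes, R 4.3.3) fitted 4 group means over all 8 arrays, two-sided, with 4 residual and 4.60 prior degrees of freedom. Benjamini-Hochberg adjustment ran over the 13002 genes, with calls at an adjusted p under 0.05. The median standard error of the 231BrM effect was 0.0968, and the number of arrays limits the precision.

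Tested on simulated data for 13002 genes, the fit recovered 94% of 100 changes of 1 log2 unit in 231BrM and 48% of 100 changes of 0.5, with 7 unchanged genes called. For the difference between lines it recovered 77% of changes of 1. These rates hold for the simulated noise and may be too high for the real arrays. In the data the SD over genes of the replicate difference was 0.255 in 231BrM with doxycycline and 0.124 in its controls. It was 0.138 and 0.132 in the control and doxycycline arrays labelled SKBrM3. Recovery with such unequal spread was not tested.

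The members, the 49 gene lists and the rules were chosen with earlier results of these data known, so the lists are no independent evidence of a direction. Named genes are MET, every called gene, up to 20 genes per direction with the largest change at an unadjusted p under 0.05 and arrays that do not overlap, up to 4 members of each list by p and otherwise those that define it, up to 15 per direction with the largest distance between the doxycycline arrays, and those called in the difference between lines. Further list members were named for their role, and BLID, KAZALD1, CCNY, THBS2, KRT8 and KRT18 after their values were seen. The main fit did not pair arrays by their replicate numbers. The hairpin's sequence was not used here. The alternatives were other filters, probe set rules, weights, priors and centring, a replicate block, the 4 231BrM arrays alone, and leaving out each array.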

Additional observations from a re-analysis of the deposited data

Results flagged for a closer look

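The effect of doxycycline differed between the lines in 3 chemokine genes by limma's test of the difference. The 231BrM value minus the value in the arrays labelled SKBrM3 was 1.22 for CXCL2, 1.27 for CXCL8 and 1.48 for CXCL1 on the log2 scale, each gene having fallen less in 231BrM.

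Control probe sets, which no comparison used, put the first 231BrM doxycycline array above all 7 others in the difference between 3' and 5' signal. This difference was 1.24 for actin and 0.33 for GAPDH (log2). On the 4 arrays labelled SKBrM3 these differences ran from 0.52 to 0.58 for actin and from -0.02 to 0.09 for GAPDH.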

How the results depend on the processing

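The count of 21 genes called lower in 231BrM became 11 with array weights, 44 with an intensity trend and robust prior, 43 with arrays centred on their median and 1 with the 4 231BrM arrays alone. It was 21 without the filter on low values, 20 with a stricter filter, 23 with the mean of a gene's probe sets and 19 with each probe set tested alone. Leaving out each array in turn gave 3 to 482 lower and 0 to 1168 higher. The intensity trend called 1 higher. The count of 3 genes whose effect in 231BrM lay above that in the other line became 0 with each probe set alone, 11 with the trend, 5 with centring and 0 to 278 when arrays were left out. Genes below it numbered 2 with the trend, 1 with centring and 0 to 195 when arrays were left out. The cause of these shifts was not tested, apart from the fewer arrays or probe sets that a setting leaves.

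The fit with a replicate block called 16 lower and again 3 differences above. The deviations of same-numbered arrays correlated at 0.239 between the 231BrM groups and from -0.11 to 0.057 otherwise. The labels do not state a pairing, and these values do not settle whether the numbers pair the arrays.

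MET was called in 17 of 17 alternatives, with log2 changes from -4.01 to -1.71 and adjusted p-values up to 0.0142. The 21 genes gave 357 combinations of gene and alternative, of which 234 kept the call and 123 kept the direction without it. With the mean of a gene's probe sets PRC1 turned to -0.18 and CNN2 to -0.28, and all 8 other CNN2 probe sets and both others of PRC1 above the filter were below the controls on the first doxycycline array. Without detection calls, low values have no measured background, which limits EHHADH.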
